A study of Mus musculus with 2 samples.

Results

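Mature dendritic cells (DCs) that carried RNA of both Ccr7 and Fscn1 made up 140 of the 19826 cells that passed filtering in 2 mouse libraries, 16 of 8557 in the control IgG library and 124 of 11269 in the anti-CD3L1 library. A member was a cell barcode of at least 500 UMIs (unique molecular identifiers, each counting 1 captured RNA molecule), with more than 200 and fewer than 6000 genes and under 5% mitochondrial UMIs. It had at least 1 UMI of Ccr7 and of Fscn1, at most 1 UMI of Siglech, a plasmacytoid DC gene, and under 2% of its UMIs from S100a8 and S100a9, which neutrophils carry at high levels. The members were thus chosen by their measured UMIs of these genes, and the levels of Ccr7 and Fscn1 in them are given as a description.

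The human osteosarcoma line 143B had been grown as tumors in female nude mice, 4 weeks old at inoculation, and the immune cells of these tumors were sequenced. Nude mice have no thymus and lack most T cells but keep myeloid cells, natural killer (NK) cells and B cells. One set of 3 tumors had received 10 mg/kg control IgG and the other set of 3 tumors 10 mg/kg anti-CD3L1 antibody, and the cells were taken with CD45 magnetic beads before droplet sequencing. Each set was pooled into 1 library with no map from cells to tumors, so differences between the libraries have no replicate check and carry no p-value, and all 95% intervals below cover counting error only.

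Conventional DCs take up antigen in tissue, and type 1 (cDC1) and type 2 (cDC2) cells differ in which T cells they serve best. On maturation either type lowers uptake, raises costimulatory molecules and gains CCR7, a chemokine receptor that leads the cell along gradients of its ligands to the draining lymph node. Fascin, the product of Fscn1, bundles actin in the dendrites of such cells. Mature DCs in tumors carry stimulatory ligands and inhibitory ones such as PD-L1 side by side, and they are a known source of IL-12 and of the CCR4 ligands CCL17 and CCL22.

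Each library stood on 74850604 (control IgG) and 108246719 (anti-CD3L1) UMIs over all barcodes. The members had medians of 11270.5 (lowest 1869, highest 19785) and 11699.5 (lowest 707, highest 30475) UMIs per cell, and their summed counts were 195459 and 1539736 UMIs, so the control IgG values are the less precise ones throughout. RNA from broken cells was measured in droplets of 5 to 50 UMIs, and by the S100a8 and S100a9 counts in members it could make up at most 1.06% and 0.989% of their UMIs. The rule limits S100a8 and S100a9 in members, so this bound is in part set by the rule. That limit removed 0 and 1 cells that carried both Ccr7 and Fscn1. The libraries shared 26 barcodes among filtered cells, none of them a member.

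Mature DCs were a small class in both libraries and a larger share of the anti-CD3L1 library. They were 0.187% (exact binomial 95% interval 0.107 to 0.303%) of filtered control IgG cells and 1.10% (0.916 to 1.31%) of filtered anti-CD3L1 cells, a ratio of 5.88 (3.48 to 10.6). The libraries differed greatly in cells rich in S100a8 and S100a9, which numbered 5765 and 515. Over the cells that were not rich in these genes, the shares were 0.573% (0.328 to 0.929%) of 2792 cells and 1.15% (0.960 to 1.37%) of 10754 cells, and the ratio was 2.01 (1.19 to 3.63). After every cell was thinned to 2000 UMIs, to set the depths equal, 9 of 8082 and 71 of 10310 cells met the rule, a ratio of 6.18.

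The other conventional DCs were larger shares of filtered cells in the anti-CD3L1 library as well. Cells with both Xcr1 and Clec9a (cDC1-like) numbered 4 and 83, and cells with at least 2 UMIs of Cd209a and 1 of Flt3 (cDC2-like) numbered 13 and 85. The ratios of their shares of filtered cells were 15.8 (5.93 to 59.2) and 4.96 (2.75 to 9.71). Over cells not rich in S100a8 and S100a9, the cDC1-like ratio was 5.39 (2.03 to 20.2). The cDC2-like ratio there was 1.70 (0.94 to 3.32), so a cDC2-like difference was not detectable over those cells. Of mature, cDC1-like and cDC2-like cells together, the mature cells were 48.5% (30.8 to 66.5%) in control IgG and 42.5% (36.7 to 48.4%) in anti-CD3L1. These intervals overlap, so a different balance between mature and other DCs was not detectable at these numbers.

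The label was checked against the 3 markers that the rule did not use. These were Il4i1, a secreted enzyme that oxidizes aromatic amino acids, Cacnb3, a subunit of voltage-gated calcium channels, and Ccl22. Of 124 anti-CD3L1 members, 72 carried all 3, 23 carried 2, 10 carried 1 and 19 carried none. Of 16 control IgG members the numbers were 6, 4, 2 and 4. NK-like cells (Ncr1 and Klrb1c, medians of 13151 and 9179 UMIs), which should lack these genes, had Il4i1 in 8.45% and 5.97% of cells, Cacnb3 in 0 cells of both libraries, and Ccl22 in 0 cells and 0.498%. By a limit of 3 counts, a count of 0 allows up to 4.23% of 71 and 1.49% of 201 NK-like cells with a UMI, and it sets no limit on cells that express a gene. Of 16 and 124 members, 11 and 93 carried Il4i1, 9 and 99 Cacnb3, and 8 and 80 Ccl22.

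The marker-poor members, 6 in control IgG and 29 in anti-CD3L1, carried more RNA of other cell types than the 10 and 95 members with at least 2 of the 3 markers. The summed level of 6 NK genes was 563 CPM (UMIs of a gene per 1000000 UMIs of the summed cells) and 268 CPM in the marker-poor members, 8.03 and 70.9 CPM in the marker-rich ones, and 4027 and 4991 CPM in NK-like cells. In control IgG, 14 of 16 members had 0 UMIs of the NK genes and 1 cell held 97.6% of them. The summed level of 10 macrophage genes was 4761 and 3374 CPM in the marker-poor members, 699 and 2113 CPM in the marker-rich ones, and 22897 and 25355 CPM in cells with at least 10 UMIs of C1qa, C1qb and C1qc (C1q-rich, a class added after the data were seen). Klrb1c, a defining NK gene, was at 0 UMIs in the control IgG members. The part of other cells, and of droplets holding 2 cells, in these values was not tested. Between the libraries, counts over the lists were therefore also taken in the marker-rich members, over the same genes.

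The members near the edge of the rule separated in the same way. With at least 2 UMIs of each rule gene, 71.4% of 14 control IgG members and 93.3% of 89 anti-CD3L1 members carried at least 2 of the 3 markers. With 1 UMI of either gene, 0 of 2 and 34.3% of 35 members did. Just outside the rule, Ccr7 without Fscn1 was found in 246 and 1211 cells, of which 2.03% and 5.37% carried at least 2 of the 3 markers.

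**Figure D1:**
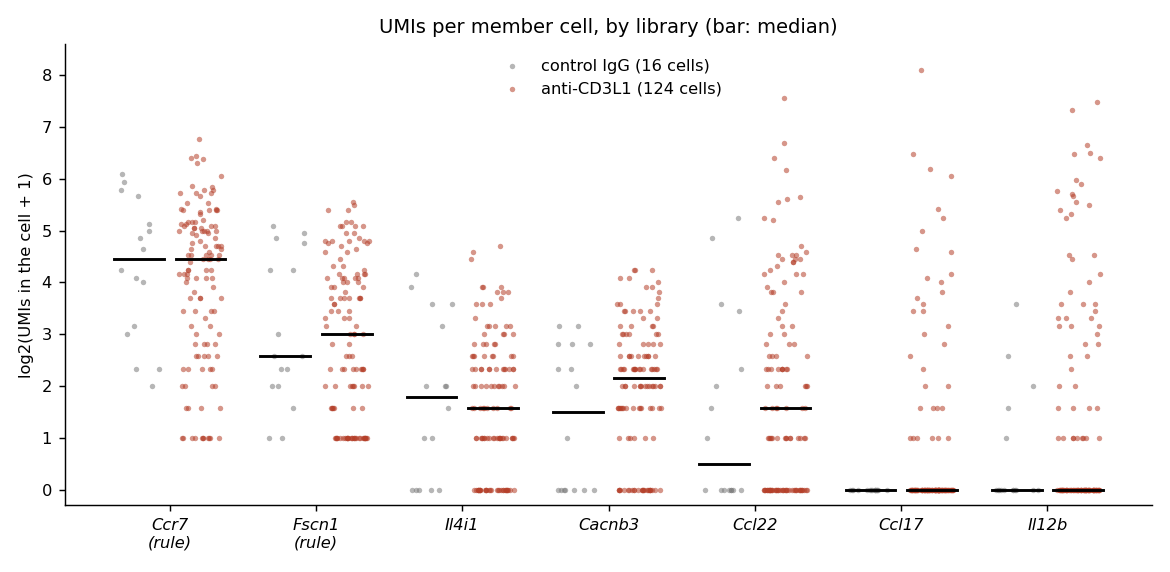
UMIs per member cell on a log2(UMIs + 1) axis for the 2 rule genes, the 3 other markers, Ccl17 and Il12b, with 1 point per cell (spread sideways at random) and a bar at the median, in grey for 16 control IgG cells and in red for 124 anti-CD3L1 cells. Ccl17 was at 0 in all 16 control IgG cells and reached 272 UMIs in 1 anti-CD3L1 cell.

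Per cell, Ccr7 ranged from 3 to 67 UMIs with a median of 21.0 in control IgG and from 1 to 108 with a median of 21.0 in anti-CD3L1. Fscn1 ranged from 1 to 33 with a median of 5.0 and from 1 to 46 with a median of 7.0. Members held 57.3% and 90.3% of all Fscn1 UMIs among filtered cells but 24.9% and 33.3% of all Ccr7 UMIs, so most Ccr7 RNA lay in cells outside the rule. The rule required both genes, so these shares are in part set by it. Of Cacnb3, which the rule did not use, members held 66.7% and 77.8% of the UMIs.

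Members were then set against the cDC1-like and cDC2-like cells of their own library, 17 in control IgG and 168 in anti-CD3L1, to find what separates them from other DCs. This comparison stays within a library. Of 3232 genes at 50 CPM or more in members or other DCs of each library, 283 (8.76%) were at least 2-fold higher in members in both libraries and 185 (5.72%) at least 2-fold lower, and the median log2 ratio over all 3232 was −0.11 and −0.10. By number of genes, the lists with the most higher in members were migration (8 of 9 compared), regulatory surface (6 of 11) and macrophage (5 of 8). Those with the most lower genes were cDC1 (8 of 10), cDC2 (4 of 8), MHC class II (4 of 10) and monocyte (3 of 4). The other DCs were chosen by genes of cDC1 and cDC2, so the counts of the cDC1 and cDC2 lists are in part set by that choice.

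All 3 remaining markers were higher. Ccl22 was at 491 CPM (398 to 600) in control IgG members and 788 CPM (745 to 834) in anti-CD3L1 members, against 32.1 and 57.1 CPM in other DCs, and Il4i1 was at 379 and 305 CPM against 82.0 and 21.8 CPM. Cacnb3 was at 235 and 364 CPM in members, while other DCs had 0 UMIs in control IgG, so that members were at least 22.0-fold higher there, and 3.17 CPM in anti-CD3L1.

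Of 9 compared genes for movement, adhesion and shape, 8 were higher in both libraries and none lower. Samsn1, an adaptor protein of immune cells, was at 798 and 1293 CPM in members and 221 and 225 CPM in other DCs. Tmem123, a surface mucin-like protein, was at 737 and 923 CPM against 168 and 96.3 CPM. Nrp2, the neuropilin that binds semaphorins and VEGF-C and that the study examines as a partner of CD3L1, was at 588 and 331 CPM against 121 and 52.7 CPM, log2 ratios of 2.28 (1.72 to 2.88) and 2.65 (2.37 to 2.94). Marcks, an actin-linked kinase substrate, Gpr183, a receptor for oxysterols, and Myo1g, a membrane-linked myosin, were among the others. Icam1, an adhesion molecule, did not reach 2-fold in both.

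Genes of inhibitory and of stimulatory surface proteins were both higher in members than in other DCs. Of 11 compared genes of the regulatory surface list, 6 were higher and none lower: Cd274, Cd200, Fas, Tnfrsf4, Il2ra and Il15ra. Cd274, which encodes PD-L1, was at 854 and 625 CPM in members against 164 and 189 CPM in other DCs. Il15ra, the chain that presents IL-15 to neighbouring cells, was at 159 and 100.0 CPM against 10.7 and 2.38 CPM, and Tnfrsf4, the receptor OX40, was at 51.2 and 82.5 CPM against 0 UMIs in other DCs of either library, at least 4.78-fold and 69.4-fold higher. Il15 itself was at 56.3 and 56.5 CPM against 7.13 and 18.6 CPM.

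Costimulatory genes were split. Of 7 compared, Cd40, Cd80 and Tnfsf4 were higher and none was lower. Cd80, a ligand of CD28, was at 373 and 406 CPM in members and 103 and 167 CPM in other DCs. Tnfsf4, the ligand of OX40, was at 230 and 89.0 CPM against 14.3 and 11.1 CPM. Cd86 and Cd83, which many DCs carry, were at 1003 and 816 CPM and at 1064 and 918 CPM in members and stayed under 2-fold in at least 1 library. By cell, 14 of 16 and 97 of 124 members carried both Cd274 and Cd40, so that RNA for PD-L1 and for CD40, a receptor through which T cells activate DCs, was found in the same cells.

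Signalling genes differed less. Of 16 NF-kB pathway genes, 4 were higher and none lower, with median log2 ratios of 0.88 and 0.89. Relb, the subunit of the noncanonical pathway, was at 496 and 552 CPM in members and 143 and 164 CPM in other DCs. Birc2, a ubiquitin ligase upstream of it, was at 153 and 195 CPM against 60.6 and 27.3 CPM. Nfkbib, an inhibitor of NF-kB, and Bcl2a1b, a survival gene whose near-identical copies make its count uncertain, were the others. Socs2, a feedback inhibitor of cytokine signalling, was at 128 and 214 CPM against 14.3 and 5.94 CPM.

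**Figure D2:**
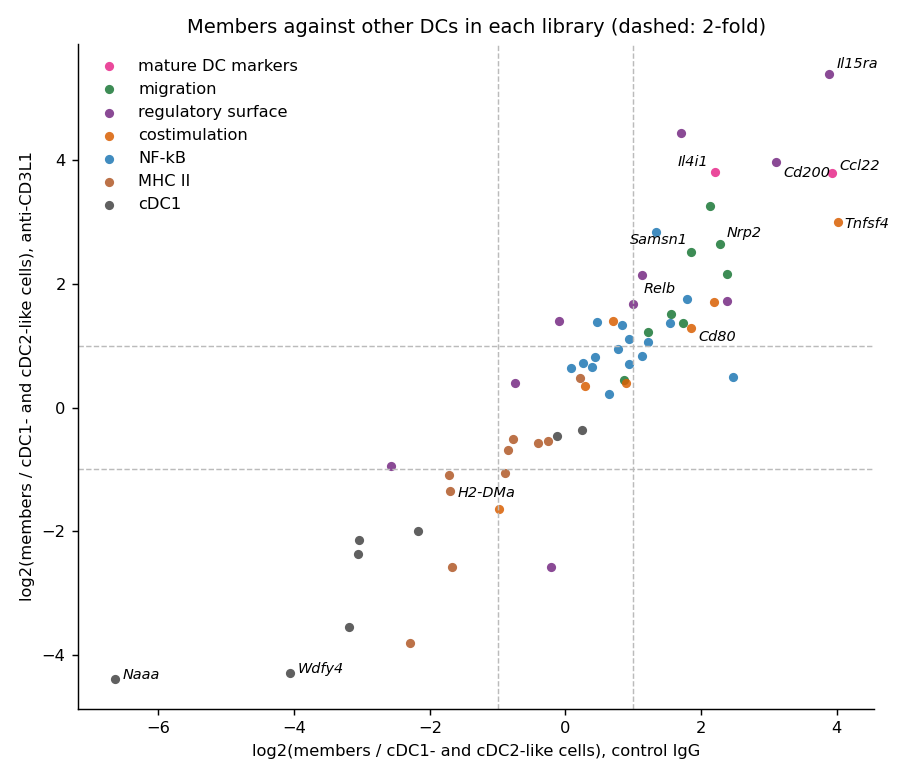
The log2 ratio of members over cDC1-like and cDC2-like cells in control IgG (x axis) and in anti-CD3L1 (y axis), with 1 point per compared gene of 7 lists and dashed lines at 2-fold. Migration and regulatory surface genes lie mostly in the upper right, cDC1 genes such as Naaa and Wdfy4 in the lower left, and genes at 0 UMIs in a group, such as Cacnb3 and Tnfrsf4, are not drawn.

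Antigen presentation genes went both ways. Of 10 compared MHC class II genes 4 were lower and none higher, with median log2 ratios of −0.87 and −0.87. Ciita, the transactivator of class II genes, was at 71.6 and 97.4 CPM in members and 235 and 208 CPM in other DCs. H2-DMa and H2-DMb1, which together exchange peptides on class II molecules, were at 184 and 223 CPM against 602 and 566 CPM, and at 143 and 68.2 CPM against 456 and 409 CPM. March1, a ubiquitin ligase that removes class II molecules and CD86 from the surface, was at 15.3 and 8.44 CPM against 74.8 and 118 CPM. The class II chains themselves stayed under 2-fold in at least 1 library, and H2-Aa was still at 4395 and 4070 CPM in members.

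Of 11 compared MHC class I genes, 3 were higher and none lower. H2-K1, a class I heavy chain whose reads can be shared with its close relatives, was at 2016 and 1722 CPM in members and 674 and 806 CPM in other DCs. Psme2, a proteasome activator, was at 783 and 711 CPM against 185 and 264 CPM, and Nlrc5, the transactivator of class I genes, at 148 and 175 CPM against 57.0 and 69.3 CPM.

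Genes of the cDC1 type were mostly lower in members than in other DCs, and fewer genes of the cDC2 type were. The summed level of 12 cDC2 genes was 1504 and 1657 CPM in members and 2848 and 1765 CPM in other DCs, close in anti-CD3L1. Of 10 compared cDC1 genes, 8 were lower and none higher, with median log2 ratios of −3.13 and −2.96, and of 8 compared cDC2 genes, 4 were lower and 1, Sirpa, was higher. Xcr1 and Cd209a, which chose the other DCs, are among those lower and show nothing beyond that choice. Clec9a, which also chose them, missed 50 CPM in control IgG and is not among the 10. The rest of the cDC1 and cDC2 lists was compared with cells chosen in part as cDC1-like or cDC2-like, and the counts of both lists are a description. Wdfy4, needed for cross-presentation, was at 15.3 and 21.4 CPM in members against 257 and 419 CPM, and Naaa, a lysosomal amidase, at 5.12 and 23.4 CPM against 513 and 489 CPM. Transcription factors of the types were still detected. Irf8 was at 553 and 666 CPM in members and 602 and 916 CPM in other DCs. In control IgG, 2 of 16 members held 57.4% of the Irf8 UMIs, and the cell with the most, 38 UMIs, carried none of Il4i1, Cacnb3 and Ccl22. Of 124 anti-CD3L1 members 29 carried Irf8 and Irf4, 78 Irf8 alone, 8 Irf4 alone and 9 neither.

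General DC genes did not set the members apart as a list. Of 8 compared with other DCs none was higher and 2 were lower, and their summed level was 1325 and 1311 CPM in members, 1262 and 1123 CPM in other DCs, 1249 and 749 CPM in NK-like cells and 810 and 903 CPM in C1q-rich cells. Flt3, the receptor for the DC growth factor, was at 220 and 319 CPM in members, 128 and 130 CPM in other DCs, and at or under 0.474 CPM in NK-like cells. Flt3 helped choose the cDC2-like cells, so its level in other DCs is in part set by that choice. Zbtb46, a transcription factor of conventional DCs, was at 138 and 190 CPM in members and 71.3 and 93.9 CPM in other DCs. Kmo, of tryptophan breakdown, and Bcl11a, a transcription factor, were the lower ones. In the macrophage list, 5 of 8 compared genes were higher in members than in other DCs in both libraries, among them C1qa at 522 and 318 CPM. C1qa was at 185 and 271 CPM in the marker-rich members and 3339 and 3793 CPM in C1q-rich cells.

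**Figure D3:**
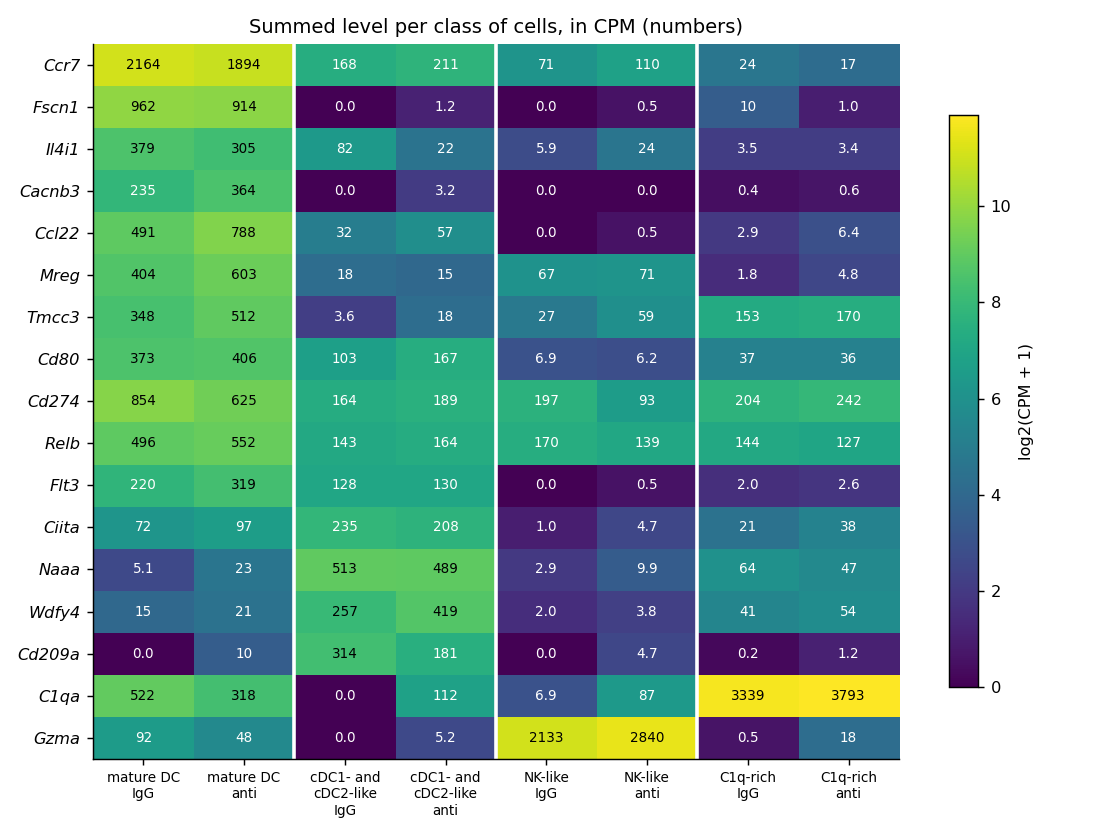
Summed level in CPM (printed numbers, colour on a log2(CPM + 1) scale) of 17 genes in members, other DCs, NK-like and C1q-rich cells of each library. Ccr7, Fscn1, Il4i1, Cacnb3, Ccl22 and Mreg are highest in the members' columns, Naaa, Wdfy4 and Cd209a in those of other DCs, Gzma in NK-like cells and C1qa in C1q-rich cells.

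Outside the lists, the 10 genes with the largest excess over other DCs in both libraries were Dscaml1, Gm13546, Mreg, Nudt17, Pdlim4, Slc4a8, Slco5a1, Syn3, Tmcc3 and Tmem150c. Mreg, which takes part in organelle transport, was at 404 and 603 CPM in members and 17.8 and 15.1 CPM in other DCs. Tmcc3 was at 348 and 512 CPM against 3.56 and 18.2 CPM. Nudt17, Dscaml1 and Tmem150c were at 0 UMIs in the other DCs and in the NK-like cells of both libraries. Members held 86.7% and 87.1% of all Tmem150c UMIs among filtered cells, although Tmem150c was seen in only 7 and 41 members. The 5 genes furthest below other DCs were Cd209d, Ckb, Sdad1, Sept3 and Unc119. Cd209d, a relative of the lectin used to choose cDC2-like cells, had 0 and 5 UMIs in members, and Unc119, a lipid-binding trafficking protein, was at 10.2 and 9.74 CPM against 160 and 126 CPM.

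Promoters of 4 member genes are shown because NF-kB drives many genes of mature DCs. They are the 250 bases upstream of the RefSeq start on GRCm38.p6, 5′ to 3′ on the gene's strand. Capitals mark matches to the 10-base NF-kB consensus on either strand. The consensus was GGG, then A or G, any base, A or T, C or T, C or T, then CC. In Il2ra (chr2:11642542-11642791, plus strand), the match covers bases 201 to 191 before the start, and in H2-K1 (chr17:34000334-34000583, minus strand), bases 125 to 115. The windows of Ccl22 (chr8:94745434-94745683, plus strand) and Il12b (chr11:44399813-44400062, plus strand) hold no match.
Il2ra: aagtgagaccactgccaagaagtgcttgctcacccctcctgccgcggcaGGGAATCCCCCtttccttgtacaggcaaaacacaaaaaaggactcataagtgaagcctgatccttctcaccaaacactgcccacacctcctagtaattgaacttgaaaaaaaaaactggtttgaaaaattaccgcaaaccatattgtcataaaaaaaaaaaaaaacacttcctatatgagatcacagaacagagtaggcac
H2-K1: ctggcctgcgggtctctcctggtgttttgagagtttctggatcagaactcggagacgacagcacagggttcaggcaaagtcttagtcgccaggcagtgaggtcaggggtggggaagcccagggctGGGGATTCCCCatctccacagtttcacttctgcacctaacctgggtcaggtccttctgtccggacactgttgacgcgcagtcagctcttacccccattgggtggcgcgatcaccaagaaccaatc
Ccl22: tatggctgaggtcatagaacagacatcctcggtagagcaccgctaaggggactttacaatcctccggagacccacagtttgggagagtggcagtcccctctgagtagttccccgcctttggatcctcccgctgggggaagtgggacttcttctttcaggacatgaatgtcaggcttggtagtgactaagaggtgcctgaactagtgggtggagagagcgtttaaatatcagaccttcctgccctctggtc
Il12b: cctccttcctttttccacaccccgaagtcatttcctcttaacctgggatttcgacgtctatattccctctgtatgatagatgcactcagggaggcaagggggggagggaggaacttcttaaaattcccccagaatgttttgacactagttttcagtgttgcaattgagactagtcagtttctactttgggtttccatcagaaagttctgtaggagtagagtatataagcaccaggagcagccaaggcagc
With either strand searched, overlapping matches within a window counted once, 11.9% of 219 genes higher than in other DCs held a match, against 4.23% of 142 lower genes, 6.96% of 2585 compared genes and 3.90% of 32851 promoters in the table. Of 26 listed genes that were higher than in other DCs and had a promoter, 3 held a match: C1qc, H2-K1 and Il2ra. These shares are a description of letters in 1 window, and a missing match says nothing about the factor.

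Between the libraries, the question was which genes of the mature cells differed after anti-CD3L1. Of 3543 genes that reached 50 CPM in one library or both, 327 (9.23%) were at least 2-fold higher in anti-CD3L1 members and 276 (7.79%) at least 2-fold lower, with a median log2 ratio of 0.05. In the marker-rich members, 421 genes were higher and 265 lower among all genes at 50 CPM there. Their share over the 3543 genes was not computed, so list counts in marker-rich members below have no such share beside them and are a description. Ccr7 was at 2164 and 1894 CPM and Fscn1 at 962 and 914 CPM, but the rule required both, so these levels are a description. Of the markers that the rule did not use, Il4i1, Cacnb3 and Ccl22, none reached 2-fold. Il12b among cytokine genes and Ccl17 among chemokine genes had the largest excess in anti-CD3L1 members, and Ebi3, Il1b, Tnfsf4 and Cd200 were lower.

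Il12b, which encodes the p40 chain of IL-12 and IL-23, was at 113 CPM (70.5 to 170) in control IgG members and 934 CPM (886 to 983) in anti-CD3L1 members, a log2 ratio of 3.05 (2.45 to 3.73). It was seen in 5 of 16 and 53 of 124 members, and in 0 and 0.498% of NK-like cells. The counting intervals do not overlap, but the RNA was unevenly spread: 12 anti-CD3L1 cells held 70.7% of it and 1 cell had 178 UMIs. With each cell given equal weight the log2 ratio was 1.87, and in the marker-rich members it was 2.94 (2.29 to 3.68). Other DCs had 7.13 and 79.7 CPM, and higher levels in anti-CD3L1 were thus also measured outside the members. These other DCs were 4 cDC1-like and 13 cDC2-like cells in control IgG and 83 and 85 in anti-CD3L1. Differences between the libraries in other DCs, here and below, are not separated from this make-up. Il12a, the p35 chain, had 1 and 2 UMIs, and Il23a, the partner of p40 in IL-23, had 0 and 12 UMIs.

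Ccl17 had 0 UMIs in control IgG members and 808 UMIs, or 525 CPM (489 to 562), in anti-CD3L1 members. Against a floor of 3 UMIs, Ccl17 was at least 34.2-fold higher in anti-CD3L1 when all members were summed. It was seen in 34 of 124 anti-CD3L1 members, or 27.4%, and in 0.995% of NK-like cells, while 0 of 16 control IgG members allows, by a limit of 3 counts, up to 18.8% of cells with a UMI and sets no limit on cells that express it. All 34 also carried Ccl22, while 46 cells carried Ccl22 without Ccl17. The RNA was unevenly spread: 12 anti-CD3L1 cells held 86.9% of the Ccl17 UMIs and 1 cell held 33.7%. The size of the bound depended on the setting. Its log2 value ranged from 1.08 to 5.26 over 10 settings and passed 2-fold in all 10. It was 4.53 without the member with the most Ccl17 UMIs in each library and 4.57 with each cell given equal weight. After thinning to 2000 UMIs, where 9 control IgG members remained, it was 1.08. Il12b and Ccl17 were found together in 23 anti-CD3L1 cells, Il12b alone in 30, Ccl17 alone in 11 and neither in 60, so the genes overlapped in part.

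**Figure D4:**
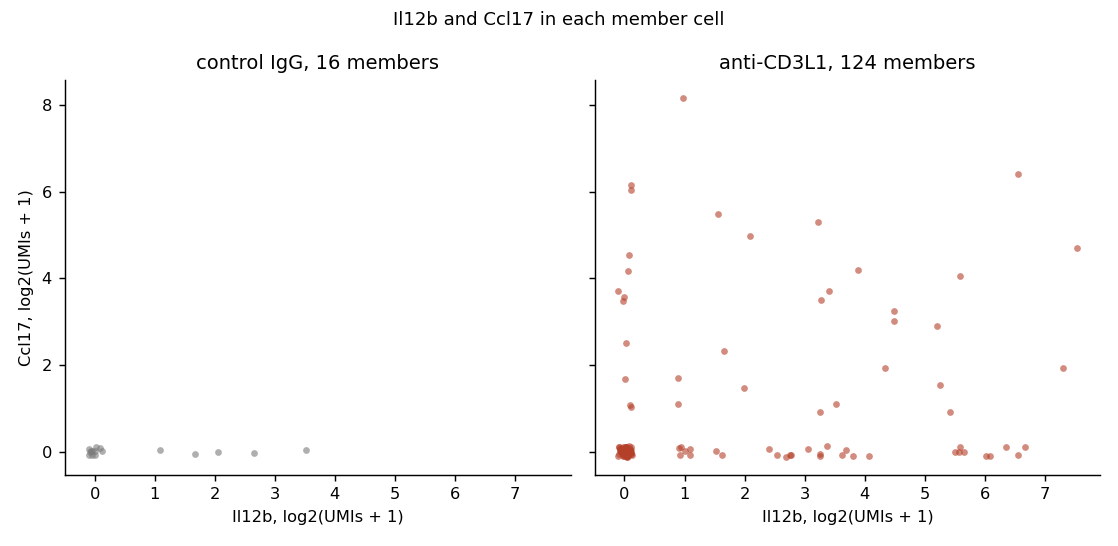
Il12b against Ccl17 in each member cell, both as log2(UMIs + 1) with a small random shift, for 16 control IgG cells (left) and 124 anti-CD3L1 cells (right). Ccl17 is at 0 in every control IgG cell, and in anti-CD3L1 23 cells carry both genes.

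Of 8 chemokine genes at 50 CPM or more in a library, Ccl17, Cxcl10 and Ccl3 were at least 2-fold higher in anti-CD3L1 members and none was lower, with a median log2 ratio of 0.86. The marker-rich members had 3 higher and 1 lower, with a median of 0.52. Cxcl10, an interferon-induced ligand of CXCR3, was at 51.2 and 163 CPM. Ccl3 rested on 2 UMIs in control IgG, with a log2 ratio of 3.36 (1.49 to 6.42). Ccl5, which attracts T cells and monocytes, was the most abundant at 2272 and 4352 CPM, under 2-fold apart, but NK-like cells had 1226 and 3632 CPM, and the log2 ratio was 0.94 (0.80 to 1.08) in all members and 0.54 (0.40 to 0.68) in the marker-rich ones. It ranged from 0.53 to 1.37 over 10 settings and passed 2-fold in 2 of them, at 1.08 with at least 2 UMIs of each rule gene and 1.37 without the member with the most Ccl5 UMIs in each library. Ccl19, a ligand of CCR7 itself, had 0 and 2 UMIs.

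Of 7 cytokine genes, Il12b was higher and Il1b and Ebi3 were lower. Among marker-rich members Il12b and Tnf were higher, Tnf with a log2 ratio of 1.33, Ebi3 was lower, and Il10 had 0 and 49 UMIs. Ebi3, the chain that pairs with p28 in IL-27, was at 194 and 40.3 CPM, a log2 ratio of −2.27 (−2.88 to −1.65), and at −2.59 in the marker-rich members. Il1b, the inflammatory cytokine, was at 2845 and 799 CPM in all members but at 1511 and 766 CPM in the marker-rich ones, where it missed 2-fold with a log2 ratio of −0.98. It was also lower in anti-CD3L1 in NK-like cells, at 991 and 170 CPM, and in C1q-rich cells, at 2229 and 1295 CPM. Il15, at 56.3 and 56.5 CPM, did not differ beyond counting error.

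Among surface genes the anti-CD3L1 members were mostly level or lower. Of 7 costimulatory genes, Tnfsf4, Tnfsf9 and Cd70 were at least 2-fold lower and none higher. Tnfsf4 had a log2 ratio of −1.37 (−1.87 to −0.85), Tnfsf9, the 4-1BB ligand, was at 133 and 63.6 CPM, and Cd70, the ligand of CD27, rested on 10 and 26 UMIs. All 3 were also lower in the marker-rich members, but each gene missed 2-fold in another setting. Tnfsf4 was at −0.78 after thinning to 2000 UMIs, Tnfsf9 at −0.46 without members that carried genes of another class, and Cd70 at −0.90 without the member with the most UMIs of the gene in each library. Cd40 was at 425 and 310 CPM and Cd80 at 373 and 406 CPM, log2 ratios of −0.45 (−0.79 to −0.10) and 0.12 (−0.23 to 0.49).

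Of 11 regulatory surface genes, Cd200 and Havcr2 were lower and Tnfrsf9 higher. Cd200, the ligand of an inhibitory receptor on myeloid cells, was at 307 and 149 CPM, a log2 ratio of −1.04 (−1.45 to −0.60), and missed 2-fold in 4 of 10 settings, with −0.82 the nearest to 0. Havcr2, which encodes TIM-3, was at 210 and 43.5 CPM in all members, and its log2 ratio went from −2.27 to −0.84 in the marker-rich members. Tnfrsf9, which encodes 4-1BB, was at 40.9 and 112 CPM, and at 624 and 602 CPM in NK-like cells, and without the member with the most UMIs of the gene in each library, a setting added after the data were seen, its log2 ratio went from 1.46 to 4.23. In the marker-rich members it was 3.78 (1.27 to 9.09) on 1 control IgG UMI. There, 2 genes of the list were higher and 3 lower, Fas and Il15ra among the lower ones at −1.08 and −1.13. Cd274 was at 854 and 625 CPM, a log2 ratio of −0.45 (−0.69 to −0.21), under 2-fold.

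In the migration list, Marcksl1, Gpr183 and Cxcr4 were at least 2-fold lower in anti-CD3L1 members and none of 10 was higher, with a median log2 ratio of −0.57. Gpr183 was at 1259 and 614 CPM, a log2 ratio of −1.04 (−1.24 to −0.83), which was −0.27 after thinning to 2000 UMIs and missed 2-fold in 4 of 10 settings. Marcksl1, an actin regulator, was at 1392 and 659 CPM, with a log2 ratio of −1.08 that was −0.79 in the marker-rich members and missed 2-fold in 5 of 10 settings, and Cxcr4, the receptor of CXCL12, at 107 and 24.7 CPM. Samsn1 stood the other way at 798 and 1293 CPM, under 2-fold. The marker-rich members had 4 of the list lower, Cxcr4, Gpr183, Nrp2 and Icam1, and none higher.

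Nrp2 was at 588 CPM (486 to 706) in control IgG members and 331 CPM (303 to 361) in anti-CD3L1 members, a log2 ratio of −0.83 (−1.12 to −0.52) that did not reach 2-fold, and −1.11 (−1.47 to −0.73) in the marker-rich members. It was seen in 13 of 16 and 92 of 124 members. Other DCs had 121 and 52.7 CPM, and C1q-rich cells 307 and 328 CPM. The marker-rich members had 619 and 287 CPM, so in anti-CD3L1 their level was under that of C1q-rich cells. Of its partners and ligands, Nrp1 had 1 and 37 UMIs, Plxna1 1 and 14, Plxna2 0 and 2, Plxna4 3 and 22, Sema3f 0 and 5, and Vegfc 0 and 1. Itpripl1, the mouse gene for CD3L1, had 0 and 1 UMIs.

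Genes for presentation and NF-kB signalling differed little between the libraries. None of 11 MHC class I genes and none of 16 NF-kB genes reached 2-fold, with median log2 ratios of −0.01 and −0.09. In the marker-rich members Bcl2l1, a survival gene of the NF-kB list, was lower at −1.23 (−1.88 to −0.54). Nfkbia, a feedback inhibitor of NF-kB, came nearest at 2604 and 1444 CPM. Of 9 MHC class II genes, H2-DMb1 was lower, at 143 and 68.2 CPM, and its log2 ratio went from −1.07 to −0.78 without the member with the most UMIs of the gene in each library. In the list of regulatory enzymes, Socs3, a feedback inhibitor of cytokine signalling, was lower at 174 and 70.8 CPM, but at −0.91 in the marker-rich members, Arg2, a mitochondrial arginase, was at 159 and 288 CPM, and Aldh1a2, of retinoic acid synthesis, had 0 and 21 UMIs. Ido1, of tryptophan breakdown, had 0 and 5 UMIs.

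**Figure D5:**
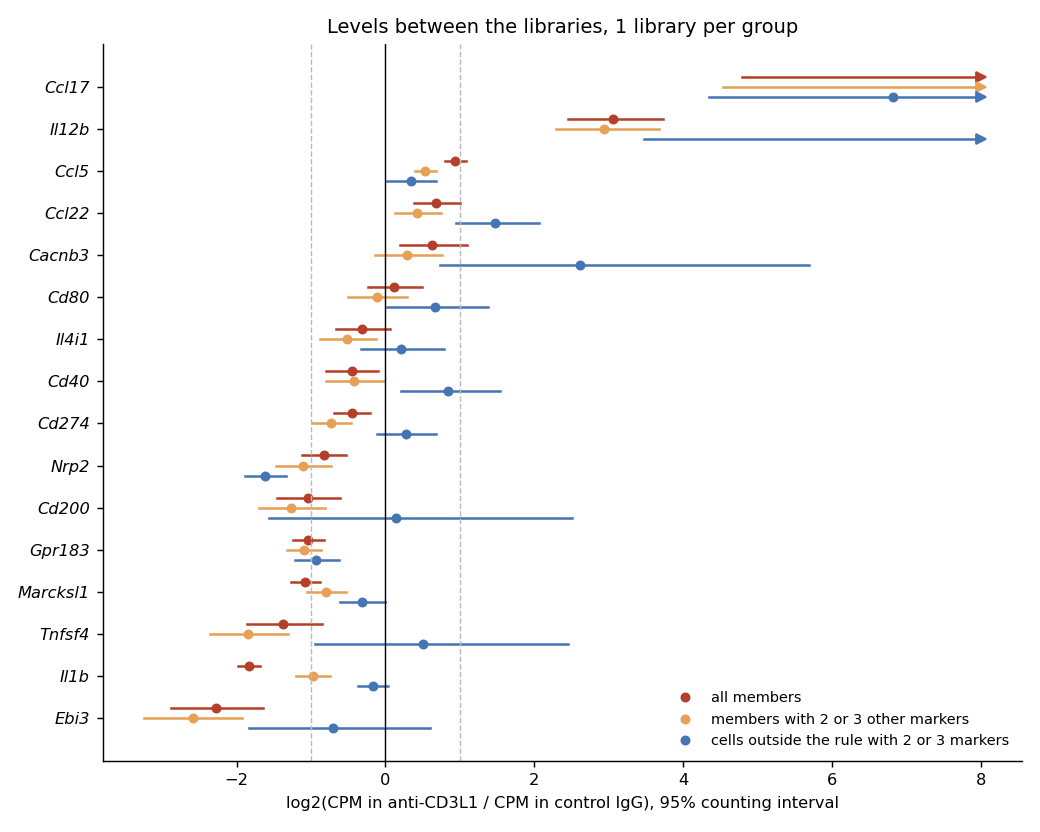
The log2 ratio of CPM in anti-CD3L1 over control IgG with 95% counting intervals for 16 genes in all members (red), members with 2 or 3 other markers (orange) and cells outside the rule with 2 or 3 of the markers (blue). Arrows mark upper bounds that are not finite or lie past the axis, dashed lines mark 2-fold, and Il12b and Ccl17 lie to the right of 2-fold in all 3 sets. Il4i1, Cacnb3 and Ccl22 helped choose the orange and blue sets, so their values there are a description.

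Outside the lists, the 10 largest excesses in anti-CD3L1 members were Clu, Depdc7, Gm35330, Hspb1, Myof, Pde10a, Psca, Spp1, Tecpr2 and Umad1. Psca, which encodes a small surface protein, had 0 and 305 UMIs, at least 12.9-fold higher, in 25.8% of anti-CD3L1 members, and members held 92.1% of its UMIs. Clu, an extracellular chaperone, was at 5.12 and 119 CPM, a log2 ratio of 4.54 (2.04 to 9.85) on 1 control IgG UMI, and members held 82.8% of its anti-CD3L1 UMIs. Spp1, which encodes osteopontin, was at 10.2 and 427 CPM, a log2 ratio of 5.38 (3.53 to 8.43) on 2 control IgG UMIs, but also at 267 and 1158 CPM in C1q-rich cells, and at 0 and 217 CPM in the marker-rich members. One cell held 85.7% of the Tecpr2 UMIs and 1 cell 51.2% of the Hspb1 UMIs.

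The 10 largest deficits were Cpd, Dst, Edil3, Gpr84, Ifitm1, Lyz1, Mmp14, Mpp7, Slc44a5 and Tpd52l1. Mpp7, a scaffold of cell junctions, was at 312 and 3.25 CPM in members, at 627 and 1.59 CPM in other DCs, at 365 and 10.9 CPM in NK-like cells and at 149 and 1.11 CPM in C1q-rich cells. Tpd52l1 was at 118 and 1.30 CPM, a log2 ratio of −6.50 (−9.63 to −4.48) on 2 anti-CD3L1 UMIs, and likewise low in the other classes of the anti-CD3L1 library. These differences were thus measured in every class compared, not in members alone. Slc44a5 was at 123 and 20.8 CPM in members and at most 4.90 CPM in the other 3 classes, 1 control IgG cell held 85.0% of the Edil3 UMIs there, and all Lyz1 UMIs of control IgG members came from 1 cell.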

How the data were processed

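Single-cell RNA was measured in 2 libraries of CD45 bead-sorted cells, 1 for control IgG and 1 for anti-CD3L1, each from a pooled set of 3 tumors. Cell Ranger 7.1.0 made the deposited counts of UMIs, which are not normalized and cover all barcodes. The submitters' processing notes also name GRCm39 and Seurat 5.1.0. The authors' table of macrophage genes, with their own log2 fold changes and p-values for that cell type, was not used.

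From these counts, barcodes were filtered and members chosen by the rule given with the results. UMIs were summed over the members of a library and divided by their total to give CPM, with exact Poisson 95% intervals. Shares have exact binomial (Clopper-Pearson) intervals, a share of 0 a limit of 3 counts, and ratios exact conditional binomial ones. UMIs tagged from the same molecule count once, and cells were never taken as replicates. A gene was compared where it reached 50 CPM and was counted as different at 2-fold. Against other DCs it had to pass in both libraries. A fold against 0 UMIs is a lower bound, taken against 3 UMIs in that group of cells. No doublet caller was run. Instead, members with at least 5 UMIs of C1qa, C1qb and C1qc, or any of Ncr1, Cd79a or Col1a1, 4 in control IgG and 21 in anti-CD3L1, were left out as an alternative.

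Named genes came from lists and, outside them, were the 10 highest and 5 lowest genes against other DCs and the 10 largest differences each way between libraries, among genes at 50 CPM and 20 UMIs. The members and lists were chosen with earlier results of these data known. Of 238 listed genes 236 were found, and some of these are not reported here. The alternatives were stricter or looser rules, thinning to 2000 UMIs, equal weight per cell, subtraction of free RNA, rescaling and other comparison cells. The ratio step was tested on simulated data. Sequences came from a RefSeq promoter table on GRCm38.p6, matched by symbol, and no coordinates of the counts were used. Python 3.11.15, numpy 2.4.6, scipy 1.17.1, pandas 2.3.3 and matplotlib 3.10.9 were used.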

Additional observations from a re-analysis of the deposited data

How the results depend on the processing

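The share of mature DCs in anti-CD3L1 cells was 0.790% with at least 2 UMIs of each rule gene, 0.843% with at least 2 of the 3 other markers, 0.914% without members carrying genes of other classes, 0.689% after thinning to 2000 UMIs, and 1.56% for any cell not rich in S100a8 and S100a9 with at least 2 of the 3 markers, a setting chosen after the data were seen. Over cells not rich in those genes, with the same marker requirement added, also after the data were seen, it was 0.883%. The ratio of the shares of filtered cells ranged from 4.83 to 7.42, within its counting interval. The numbers of genes 2-fold higher and lower in anti-CD3L1 members went from 327 and 276 to 853 and 1474 after thinning, where 9 control IgG cells of 2000 UMIs remained, and were 303 to 421 and 265 to 369 otherwise. Against cDC1-like cells alone, of which control IgG had 4, there were 478 higher and 282 lower genes, and marker-rich members, added later, had 329 lower genes. Of 374 values recomputed for 35 genes, 289 moved within their counting interval, 74 moved further with the same sign and 11 changed sign. Of the 11, 2 were in members, Ccl22 at −0.13 after thinning and H2-Aa at 0.08 without the member with the most UMIs of the gene in each library, and 9 in cells outside the rule with at least 2 of the 3 markers, added later. In those cells Il4i1 was at 0.21, H2-Aa at 0.97 and Cd274 at 0.27, all 3 under 2-fold in members. Il4i1 helped choose those cells, so its level there is in part set by the choice. For genes past 2-fold in members log2 ratios were 0.14 for Cd200, 0.51 for Tnfsf4, 1.82 for H2-DMb1, 0.15 for Cd14, −0.36 for Myof and −3.92 for Hspb1. Of 28 genes past 2-fold, 12 stayed past it in each setting that kept to members and 16 missed it in 1 or more, among them Cxcl10 and Psca (both 0.48), Edil3 (−0.39) and Slc44a5 (−0.66) after thinning and Hspb1 in 3 of 7 settings. The cause was not tested. No paired analysis was possible because each group had 1 library, and for the same reason no replicate could be left out. Depth limits the control IgG members most: with 195459 UMIs in all, 3 UMIs of a gene correspond to 15.3 CPM.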

Other observations

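Marker-rich cells also lay outside the rule, and they were examined after the data were seen. Cells with at least 2 of Il4i1, Cacnb3 and Ccl22 that were not members and not rich in S100a8 and S100a9 numbered 8 in control IgG and 81 in anti-CD3L1. Of these, 5 and 67 carried Ccr7 but only 1 and 1 carried Fscn1. Ccl17 was at 7.04 and 799 CPM in them, a log2 ratio of 6.83 (4.34 to 12.1) on 1 control IgG UMI, and Il12b had 0 and 313 UMIs. Nrp2 was at 1120 and 366 CPM, a log2 ratio of −1.61 (−1.88 to −1.34), and Gpr183 at 845 and 444 CPM. These 4 differences had the same sign as in members. Il1b, at 1747 and 1553 CPM, and Cd200, at 21.1 and 23.3 CPM, did not differ beyond counting error. H2-Aa was at 3374 and 6612 CPM there, a log2 ratio of 0.97 (0.84 to 1.11), against −0.11 (−0.21 to −0.01) in members.

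Genes of antigen uptake and innate sensing were the list with the most lower genes for its size in anti-CD3L1 members, 5 of 7, with none higher and a median log2 ratio of −1.79. Among the marker-rich members 3 of the 7 were lower and 1, Mrc1, was higher on 1 control IgG UMI, with a median of −0.41. Cd14, the lipopolysaccharide co-receptor, was at 680 and 147 CPM, a log2 ratio of −2.21 (−2.53 to −1.89). In the marker-rich members it was at 482 and 120 CPM. Fcgr2b, the inhibitory Fc receptor, was at 205 and 43.5 CPM, its log2 ratio of −2.23 going to −1.16 in the marker-rich members, and Tlr2 at 143 and 41.6 CPM. Clec4n, a C-type lectin, was at 194 and 55.9 CPM in all members but at 40.2 and 47.8 CPM in the marker-rich ones, where it was not lower, and Mrc1 went from 71.6 and 29.2 CPM to 8.03 and 18.8 CPM. Cd14 was lower in anti-CD3L1 in other DCs too, at 296 and 128 CPM, in NK-like cells at 305 and 73.4 CPM and in C1q-rich cells at 876 and 640 CPM. The part of other cells' RNA in these values was not tested.

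Interferon-stimulated genes had 3 of 7 higher and none lower, with a median log2 ratio of 0.70. Rsad2, an antiviral enzyme, was at 102 and 255 CPM. Gbp2 rested on 5 control IgG UMIs, and Stat2 on 3, with a log2 ratio of 1.74 (0.14 to 4.05). In the marker-rich members 1 of the list was higher. Isg15, the most abundant, was at 793 and 678 CPM.

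Some members carried genes of division. Mki67 was seen in 8 of 16 and 37 of 124 members at 118 and 91.6 CPM, and Stmn1, which regulates microtubules, was at 5.12 and 78.6 CPM on 1 and 121 UMIs, a log2 ratio of 3.94 (1.44 to 9.26). No phase of the cell cycle was called.

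The genes most confined to the members by UMIs in anti-CD3L1 were Psca (92.1% of the UMIs of all filtered cells), Oprd1 (91.3%), Fscn1 (90.3%), Mmp20 (90.0%) and Tmem150c (87.1%). Fscn1 is a rule gene, so its share is in part set by the choice of members. Oprd1, which encodes an opioid receptor, had 17 UMIs in control IgG members and 21 in anti-CD3L1 members, and Mmp20, a matrix protease known from tooth enamel, had 1 and 27. In control IgG, members held all 17 Oprd1 UMIs of the library's filtered cells but 12.5% of those of Rerg, which reached 82.8% in anti-CD3L1.

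Other lists gave few differences between the libraries. Of 3 cDC1 genes Cadm1 was higher, of 5 cDC2 genes Klf4 was higher and Itgam lower, of 4 monocyte genes Ly6c2 was higher and Vcan lower, and of 9 macrophage genes 1 was higher and 2, Mrc1 and Adgre1, were lower. In the marker-rich members none of the 9 was lower and 4 were higher, with Apoe at 137 and 1293 CPM, and Adgre1 had a log2 ratio of 0.09. Cadm1 was at 0.61 there and Ly6c2 had 0 and 82 UMIs. Of 2 genes of innate lymphoid cells both Rora and Areg were higher, but only 1 of them in the marker-rich members. Areg had 0 and 144 UMIs, seen in 18 of 124 anti-CD3L1 members, and 1 cell held 30.6% of them. It was at 53.0 CPM in the marker-rich and 222 CPM in the marker-poor anti-CD3L1 members. None of 6 general DC, 2 plasmacytoid DC and 1 NK gene reached 2-fold, and neutrophil, B cell, T cell and fibroblast lists had no gene at 50 CPM. In members, the summed level of 4 T cell genes was 40.9 and 2.60 CPM and that of 5 B cell genes 5.12 and 35.1 CPM.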
